A study of Drosophila melanogaster with 6 samples.

Results

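The small heat shock proteins of Drosophila were followed through 8 genes, chosen by name: Hsp22, Hsp23, Hsp26, Hsp27, Hsp67Ba, Hsp67Bb, Hsp67Bc and l(2)efl. All 8 have a row among the 16727 genes counted. Poly(A) RNA of whole larvae was sequenced 48 hr after egg laying. There were 2 genotypes of 3 samples each, labeled as biological replicates. CG1603PBac larvae were homozygous for PBac[SAstopDSRed]LL06826, a piggyBac insertion that lies between exons of the zinc finger gene CG1603, carries stop codons and arrests larvae at the second instar. The insertion had been backcrossed to w1118, and homozygotes were picked by the absence of a fluorescent balancer chromosome. The larvae they were set against were labeled WT and are called wt here. Each library came from whole larvae, so fewer cells of a type and less RNA per cell cannot be told apart. Larvae were matched by hours after egg laying, so a difference in developmental stage cannot be told apart from genotype.

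Small heat shock proteins share an alpha-crystallin domain and assemble into large oligomers. Without using ATP, they bind unfolding proteins and hold them until Hsp70 and its partners refold them or pass them on for degradation. In flies, most of their genes sit together at cytological position 67B, where heat shock factor drives them after heat and the steroid hormone ecdysone drives several of them at metamorphosis. The members differ in address and partners: Hsp22 is mitochondrial, Hsp27 is mostly nuclear, Hsp23 and Hsp26 are largely cytosolic, and Hsp67Bc works with the co-chaperone Starvin in autophagy.

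In CG1603PBac larvae the transcripts of Hsp26, Hsp23, Hsp27 and Hsp67Bc were higher than in wt larvae, and that of l(2)efl was lower. Hsp26 was 19.6-fold, Hsp23 9.36-fold, Hsp27 4.49-fold and Hsp67Bc 2.86-fold higher, whereas l(2)efl was 2.11-fold lower. Hsp67Ba and Hsp67Bb did not pass the test, and Hsp22 could not be measured. Of the 7 members tested, 5 thus passed edgeR's quasi-likelihood test at an adjusted p of 0.05, 4 higher and 1 lower. The background was large: 69.7% of the 11306 genes tested passed, 34.8% higher and 34.9% lower in CG1603PBac larvae. The share of members that passed was therefore near that of all genes, and the size of each change is given beside its call. A log2 fold change over 2 with the same threshold was reached by 5.18% of genes and by 3 of the 7 members. The median log2 fold change was 1.51 over the 7 members and 0.06 over all genes tested. Levels are given in CPM, each gene's counts scaled to a common library size with TMM factors for library composition.

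Library totals ran from 27100927 to 36016914 gene counts in CG1603PBac larvae and from 33377603 to 34883345 in wt larvae. The composition of the genotypes differed widely. Scaling by library totals alone moved the median log2 change over all tested genes to 0.45 and the share of calls that were higher to 68.7%, against 49.9% with TMM factors. CG1603 itself had 30.8, 27.6 and 26.1 CPM in CG1603PBac larvae, against 20.3, 17.02 and 19.3 CPM in wt larvae. The allele inserts sequence and is not described as removing an exon, so this count does not check the labels. The marker lists of tissues moved with the genotype: all 8 muscle markers were lower, with a summed level of 12502 to 12738 CPM in CG1603PBac larvae and 29702 to 30852 CPM in wt larvae. Among these, sls was lower by a small amount, at -0.09 on the log2 scale (adjusted p = 0.0311, edgeR's quasi-likelihood test). The marker lists were not followed under other scalings. All 8 neuronal markers were higher, summing to 1044 to 1114 CPM in CG1603PBac larvae and 321 to 375 CPM in wt larvae. Of 5 fat body markers tested 3 were lower, with sums of 599 to 654 CPM in CG1603PBac larvae and 2210 to 2572 CPM in wt larvae, and Fbp1 was at 0 in every library. Of 7 midgut markers 2 were higher and 3 lower (1684 to 1700 CPM in CG1603PBac larvae, 1961 to 2250 CPM in wt larvae), and of 7 germline markers 1 was higher and 3 lower (13.6 to 16.8 CPM in CG1603PBac larvae, 19.0 to 23.2 CPM in wt larvae). The part of tissue makeup in the results below was not tested.

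**Figure D1:**
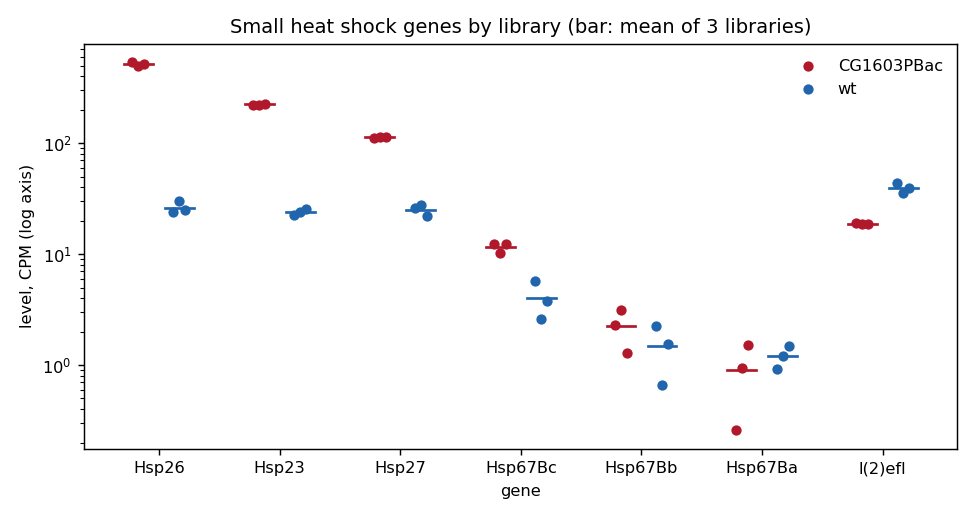
Level of 7 small heat shock genes in every library, in CPM on a log axis, with CG1603PBac libraries left of wt libraries. Points are libraries and bars are means of 3. Hsp23, Hsp26, Hsp27 and Hsp67Bc sit higher in all 3 CG1603PBac libraries than in any wt library, l(2)efl sits lower, Hsp67Ba and Hsp67Bb overlap. Hsp22, at 0 in every library, is not drawn.

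Hsp26 (FBgn0001225), which lengthens adult life when overexpressed, changed most. It lies on chromosome 3L from 9376418 to 9377427 (dm6, minus strand), and none of its exon bases overlap another gene. Its level was 535.7, 497.6 and 513.5 CPM in CG1603PBac larvae, against 24.0, 29.9 and 25.1 CPM in wt larvae. The genotypes stood far apart, with little spread within either. Hsp26 averaged 516 ± 19.1 CPM in CG1603PBac larvae and 26.3 ± 3.14 CPM in wt larvae (SD, n = 3 each). The log2 fold change was 4.29 ± 0.07 (SE, 95% interval 4.15 to 4.44), with an adjusted p of 1.13e-21 by edgeR's quasi-likelihood test. Only 104 genes, 0.920% of those tested, had a larger rise than Hsp26.

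Hsp23 (FBgn0001224, 3L 9381882 to 9382765, plus strand) is a cytosolic holdase whose gene also responds to ecdysone. It had 221.8, 222.1 and 226.8 CPM in CG1603PBac larvae, against 22.5, 23.9 and 25.3 CPM in wt larvae. The replicates of each genotype lay close together, and the groups did not overlap. The means were 224 ± 2.80 CPM in CG1603PBac larvae and 23.9 ± 1.40 CPM in wt larvae (SD, n = 3 each). Its log2 fold change was 3.23 ± 0.07 (SE, 95% interval 3.09 to 3.36, adjusted p = 4.59e-20, edgeR's quasi-likelihood test), and 187 genes or 1.65% rose more than Hsp23.

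Hsp27 (FBgn0001226, 3L 9384063 to 9385694, plus strand), the mostly nuclear member, had 111.8, 114.4 and 114.0 CPM in CG1603PBac larvae, against 25.9, 27.9 and 21.9 CPM in wt larvae. All 3 CG1603PBac libraries were again well above every wt library. It averaged 113 ± 1.38 CPM in CG1603PBac larvae and 25.2 ± 3.06 CPM in wt larvae (SD, n = 3 each). The log2 fold change of 2.17 ± 0.09 (SE, 95% interval 1.99 to 2.35) had an adjusted p of 3.13e-15 by edgeR's quasi-likelihood test. It shares 49 exon bases, 3.00% of its length, with the antisense gene CR43483.

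Hsp67Bc (FBgn0001229, 3L 9371511 to 9372497, minus strand), regarded as a fly counterpart of human HSPB8, was a weaker transcript with a smaller change. It had 12.3, 10.2 and 12.3 CPM in CG1603PBac larvae (382, 369 and 508 counts), against 5.74, 2.62 and 3.82 CPM in wt larvae (173, 76 and 113 counts). The lowest CG1603PBac library was still above the highest wt library. Relative to their mean, the wt libraries spread more for Hsp67Bc than for the members above. Its level was 11.6 ± 1.22 CPM in CG1603PBac larvae and 4.06 ± 1.57 CPM in wt larvae (SD, n = 3 each), a log2 fold change of 1.51 ± 0.25 (SE, 95% interval 0.99 to 2.04, adjusted p = 1.69e-05, edgeR's quasi-likelihood test).

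The member that fell, l(2)efl (FBgn0011296), lies apart from the others on chromosome 2R from 23684651 to 23685543 (minus strand). It encodes an alpha-crystallin protein known from muscle. It had 18.9, 18.5 and 18.8 CPM in CG1603PBac larvae, against 44.0, 35.3 and 39.5 CPM in wt larvae. Every CG1603PBac library was below every wt library. The means of l(2)efl were 18.7 ± 0.201 CPM in CG1603PBac larvae and 39.6 ± 4.38 CPM in wt larvae (SD, n = 3 each), with a log2 fold change of -1.08 ± 0.12 (SE, 95% interval -1.32 to -0.84, adjusted p = 3.40e-08, edgeR's quasi-likelihood test). Beside this, the 8 muscle markers fell with a median log2 fold change of -1.17. Their part in the change of l(2)efl was not tested. It shares 75 exon bases, 10.1% of its length, with St3 on the other strand.

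The remaining 3 members could be counted only in part, or not at all, because their exons overlap those of other genes. Hsp22 (FBgn0001223, 3L 9372931 to 9374964, plus strand) had 0 counts in all 6 libraries. All 1900 of its exon bases are also exon of Hsp67Bb, now named CG4456, on the same strand, so no read could be assigned to Hsp22 alone. Across the files, 374 of 415 genes with no exon base of their own (90.1%) were at 0 in every library, against 1209 of 15136 genes (7.99%) with at least 200 own bases on either strand. Among 107 genes with at least 200 bases unique on their own strand but all covered from the other strand, 89 (83.2%) were at 0, so counting behaved as if it ignored strand. The 0 of Hsp22 is thus no measure of its expression, and no limit was drawn from it.

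Hsp67Bb (FBgn0001228, 3L 9372722 to 9374964, plus strand), named for its place in the cluster although it encodes a rhodanese-like protein, has 209 of 2109 exon bases (9.91%) to itself, from 9372722 to 9372930. Over these it had 71, 113 and 53 counts in CG1603PBac larvae, against 68, 19 and 46 counts in wt larvae. The groups overlapped, and the highest wt library was above the lowest CG1603PBac library. The log2 fold change of Hsp67Bb was 0.58 ± 0.55 (SE, 95% interval -0.57 to 1.73), with an adjusted p of 0.359 by edgeR's quasi-likelihood test. Under such counting, reads that lie wholly in the shared stretch would count for neither gene.

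Hsp67Ba (FBgn0001227, 3L 9377802 to 9379534, minus strand), a further alpha-crystallin protein of the cluster, shares 1316 of its 1733 exon bases (75.9%) with the antisense gene CR43481. It had 8, 34 and 62 counts in CG1603PBac larvae, against 28, 35 and 44 counts in wt larvae. The CG1603PBac libraries included both the lowest and the highest value. Its log2 fold change was -0.41 ± 0.72 (SE, 95% interval -1.92 to 1.09, adjusted p = 0.626, edgeR's quasi-likelihood test), and it was 0.02 without CG1603PBac replicate 1. These intervals leave room for a change of more than 2-fold in Hsp67Ba and Hsp67Bb. In all, 5 of the 7 members tested did not overlap between genotypes, against 73.8% of all genes tested.

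To compare levels between genes, the CPM of the 5 members with nearly all exon bases countable was divided by the countable exon length in kb. In CG1603PBac larvae the order was Hsp26 at 510 ± 18.9, Hsp23 at 253 ± 3.17, Hsp27 at 71.7 ± 0.874, l(2)efl at 28.2 ± 0.302 and Hsp67Bc at 11.8 ± 1.24 CPM per kb (SD, n = 3), with no neighbors in that order overlapping. In wt larvae l(2)efl led at 59.5 ± 6.58 CPM per kb, followed by Hsp23 at 27.0 ± 1.58, Hsp26 at 26.1 ± 3.11, Hsp27 at 15.9 ± 1.93 and Hsp67Bc at 4.11 ± 1.59 CPM per kb (SD, n = 3). There Hsp23 and Hsp26 did not differ beyond their spread. Among these 5 members, the leading transcript was thus Hsp26 in CG1603PBac larvae and l(2)efl in wt larvae.

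**Figure D2:**
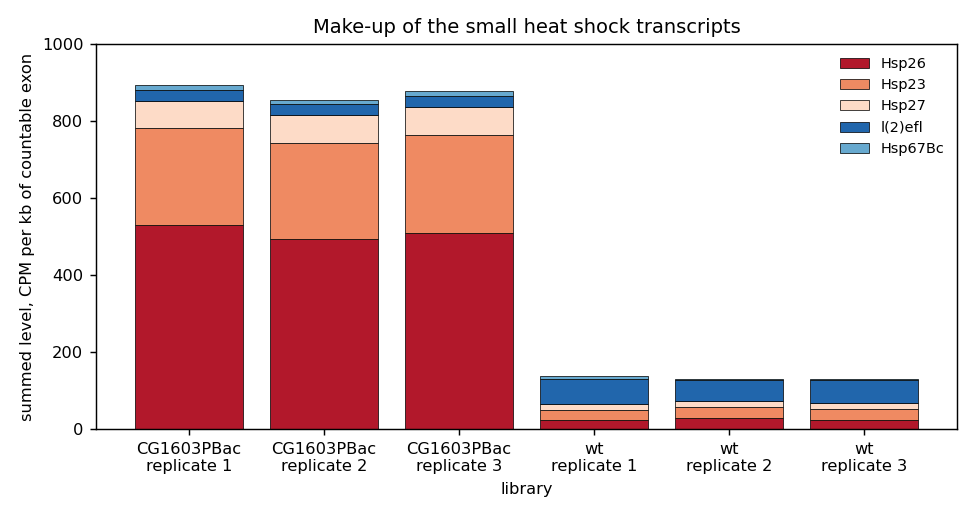
Stacked level of 5 small heat shock genes in each library, in CPM per kb of countable exon, with CG1603PBac libraries on the left and wt libraries on the right. The stacks reach 854 to 893 in CG1603PBac libraries, mostly Hsp26 and Hsp23, and 130 to 138 in wt libraries, where l(2)efl is the largest segment.

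The sum of these 5 was 875 ± 19.4 CPM per kb in CG1603PBac larvae and 133 ± 4.23 CPM per kb in wt larvae (SD, n = 3 each). Hsp26 made up 58.3 ± 0.937% of the sum in CG1603PBac larvae and 19.7 ± 2.81% in wt larvae. The share of l(2)efl was 3.22 ± 0.0369% in CG1603PBac larvae and 44.8 ± 3.70% in wt larvae (SD, n = 3 each). Within this sum, Hsp23 held 28.9 ± 0.706% in CG1603PBac larvae and 20.4 ± 1.74% in wt larvae, while Hsp27 held 8.19 ± 0.273% in CG1603PBac larvae and 12.03 ± 1.49% in wt larvae. The share of Hsp27 was thus lower although its level was higher.

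Ratios within a library do not depend on the scaling between libraries. Hsp26 over Hsp23, both per kb, was 2.11, 1.96 and 1.98 in CG1603PBac libraries, against 0.933, 1.10 and 0.868 in wt libraries. Hsp26 over Hsp27 was 7.51, 6.82 and 7.06 in CG1603PBac libraries, against 1.45, 1.68 and 1.79 in wt libraries. Hsp23 over Hsp27 was 3.55, 3.48 and 3.56 in CG1603PBac libraries, against 1.56, 1.53 and 2.07 in wt libraries. All 3 ratios were higher in every CG1603PBac library, so the neighbors at 67B did not rise by the same factor. Hsp26 over l(2)efl was 18.7, 17.7 and 18.0 in CG1603PBac libraries, against 0.359, 0.559 and 0.419 in wt libraries. Each of these 4 ratios gave p = 0.1 in a 2-sided exact permutation test, the smallest value that 3 libraries against 3 can reach.

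The 7 members at 67B lie within 14.184 kb, and the genes around them moved in both directions. Of 12 other counted genes whose start lies within 20 kb of a member's start there, 11 could be tested. The 7 that passed were near the share of all genes tested (69.7%, with 34.8% higher and 34.9% lower). Of these, 3 were higher in CG1603PBac larvae, namely CG4080 with a log2 fold change of 0.97, CG4452 with 0.51 and the ferredoxin gene Fdxh with 0.48. A further 4 were lower: the mitotic kinesin Klp67A at -1.99, CG4447 (mRRF1, a mitochondrial ribosome recycling factor) at -1.33, the translation factor eIF-4E at -0.80 and Pdxk, a pyridoxal kinase, at -0.21, which scaled by library totals was called higher at 0.19. The median log2 fold change was 0.30 over the 11 neighbors, and none of these rose past 1. The remaining neighbor, CG4461 beside Hsp26, was too low for the filter. Without the filter its log2 fold change was 5.18, from few counts (adjusted p = 0.0115, edgeR's quasi-likelihood test). Around l(2)efl, 8 neighbors were tested, of which 5 were higher (St1 at 0.92, Pal2 at 0.76, St3 at 0.53, angel at 0.34 and CG4091 at 0.24) and mRpL43, a mitochondrial ribosomal protein gene, was lower at -1.51. These 6 of 8 were also near the share of all genes. St3, which overlaps l(2)efl, had a fold change of the opposite sign. Leaving out CG1603PBac replicate 2 ended the calls of St3 (adjusted p = 0.123), angel (0.117) and CG4091 (0.167) in edgeR's quasi-likelihood test. Those of angel (0.0559) and CG4091 (0.0951) were also lost without CG1603PBac replicate 1, that of angel without wt replicate 3 (0.0730) and that of CG4091 without wt replicate 2 (0.164).

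**Figure D3:**
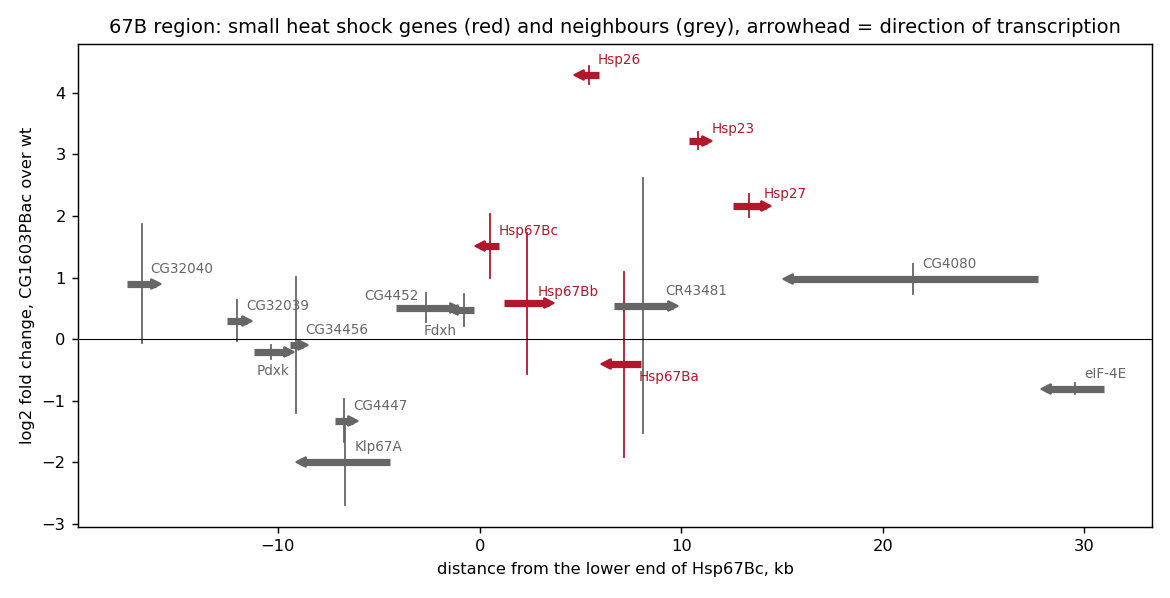
Genes of the 67B region by distance in kb from the lower end of Hsp67Bc (x axis) and log2 fold change of CG1603PBac over wt (y axis), with 95% intervals as vertical lines and arrowheads for the direction of transcription. Hsp26, Hsp23, Hsp27 and Hsp67Bc stand above the grey neighbors drawn, which run between -1.99 and 0.97, and the intervals of Hsp67Ba and Hsp67Bb cross 0. CG4461 and Hsp22, which were not tested, are not drawn.

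Other alpha-crystallin genes of the fly, 5 in the list, gave mixed changes. Of 3 tested, 1 was higher and 1 lower, with a median log2 fold change of -0.10. CG13133 had 20.3, 19.2 and 23.2 CPM in CG1603PBac larvae, against 3.92, 4.42 and 5.67 CPM in wt larvae, and its log2 fold change was 2.16 ± 0.18 (SE, adjusted p = 8.86e-10, edgeR's quasi-likelihood test). CG14207, an HSPB8-like protein that is also a partner of Starvin, was much the strongest of these and lower, with 505 ± 12.04 CPM in CG1603PBac larvae and 754 ± 19.9 CPM in wt larvae (SD, n = 3 each). Its log2 fold change was -0.58 (adjusted p = 3.67e-11, edgeR's quasi-likelihood test). Per kb, CG14207 stood at 331 CPM in CG1603PBac larvae and 494 CPM in wt larvae, above l(2)efl in both. CG7409 had 23.9 ± 2.90 CPM in CG1603PBac larvae and 25.7 ± 3.89 CPM in wt larvae (SD, n = 3 each), and the 95% interval of its log2 fold change ran from -0.38 to 0.18 around -0.10. CG4461, which lies within the 67B cluster next to Hsp26 (3L 9375430 to 9376293), had 5, 28 and 28 counts in CG1603PBac larvae, against 1, 0 and 0 counts in wt larvae. It was too low for the filter, and without the filter its adjusted p was 0.0115 in edgeR's quasi-likelihood test. CG43851 was at 0 in every library.

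Small heat shock proteins hand their clients to the Hsp70 system. Beside them, 16 genes of chaperones, co-chaperones and chaperone-assisted autophagy were examined, not all of them heat-inducible. Of 14 tested, 9 were higher and 4 lower in CG1603PBac larvae, with a median log2 fold change of 1.38. Over all genes tested, 34.8% were higher and 34.9% lower. The count and median include the near-identical copies Hsp70Aa, Hsp70Ba, Hsp70Bb and Hsp70Bc, which are not independent measures. Hsp68, a heat-inducible Hsp70 relative, had 163.9, 160.2 and 160.0 CPM in CG1603PBac larvae, against 40.6, 32.9 and 33.7 CPM in wt larvae, with a log2 fold change of 2.17 (adjusted p = 3.70e-16, edgeR's quasi-likelihood test). DnaJ-1, the Hsp40 that hands clients to Hsp70, stood at 187 ± 1.45 CPM in CG1603PBac larvae and 53.6 ± 1.95 CPM in wt larvae (SD, n = 3 each), a log2 fold change of 1.81. Both stood apart between genotypes, with no overlap.

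Among the listed genes with a role in chaperone-assisted autophagy, in which Hsp67Bc takes part, stv, ref(2)P and CHIP were higher, whereas CG14207, described above, was lower. The co-chaperone gene stv, which encodes Starvin, had 295 ± 4.94 CPM in CG1603PBac larvae and 153 ± 7.99 CPM in wt larvae (SD, n = 3 each), a log2 fold change of 0.95. The autophagy receptor gene ref(2)P, the fly p62, had 825 ± 26.0 CPM in CG1603PBac larvae and 217 ± 4.17 CPM in wt larvae (SD, n = 3 each), a log2 fold change of 1.93. CHIP, a ubiquitin ligase that acts on Hsp70 clients, was higher by 0.28 on the log2 scale (adjusted p = 0.0161, edgeR's quasi-likelihood test). It no longer passed when wt replicate 1 (adjusted p = 0.0639), wt replicate 2 (0.0760) or CG1603PBac replicate 3 (0.0866) was left out of edgeR's quasi-likelihood test.

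Of the near-identical Hsp70 genes, between which reads may be split or lost, Hsp70Ba was highest, with 46.9, 36.0 and 54.9 CPM in CG1603PBac larvae, against 7.70, 8.32 and 9.90 CPM in wt larvae. Its log2 fold change was 2.41. Hsp70Aa, Hsp70Bb and Hsp70Bc were also called higher, from low counts in wt larvae, and Hsp70Ab and Hsp70Bbb were too low to test. These single-copy values are uncertain for that reason.

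The 4 chaperones that were lower included Hsc70Cb, the Hsp110 nucleotide exchange factor, with 98.5 ± 4.16 CPM in CG1603PBac larvae and 247 ± 2.51 CPM in wt larvae (SD, n = 3 each), a log2 fold change of -1.33. Hop, which links Hsp70 to Hsp90, had 125 ± 2.27 CPM in CG1603PBac larvae and 275 ± 2.57 CPM in wt larvae (SD, n = 3 each), a log2 fold change of -1.14. The Hsp40 gene mrj was lower at -0.60. Hsp83, the fly Hsp90, was lower by a small amount, with 4058 ± 31.8 CPM in CG1603PBac larvae and 4410 ± 118 CPM in wt larvae (SD, n = 3 each; log2 fold change -0.12; adjusted p = 0.00255, edgeR's quasi-likelihood test), but scaled by library totals it was called higher, with a log2 fold change of 0.27. Droj2, another Hsp40 gene, did not pass the test at -0.06, but scaled by library totals it was called higher at 0.34. The listed chaperones and co-chaperones thus did not all move the way of Hsp26, Hsp23 and Hsp27. Hsp68, DnaJ-1, Hsp70Aa, Hsp70Ba, Hsp70Bb, Hsp70Bc, ref(2)P, stv and, by a small amount, CHIP did.

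**Figure D4:**
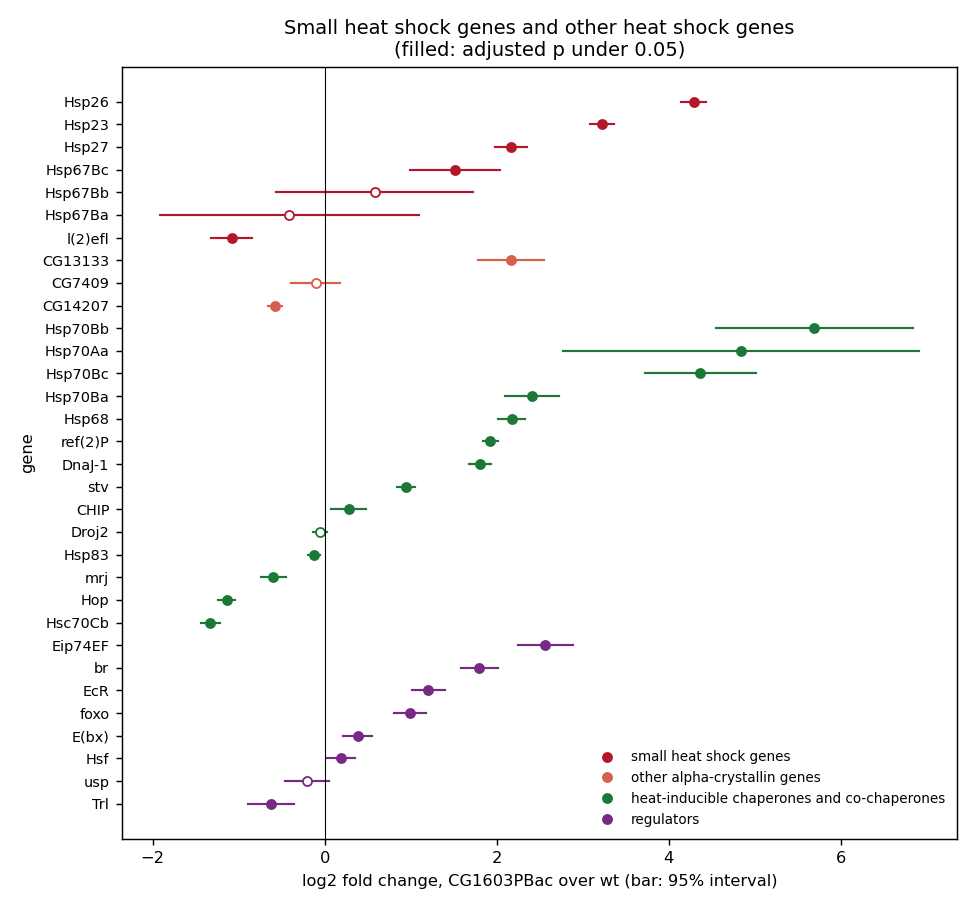
Log2 fold change of CG1603PBac over wt (x axis) with 95% intervals for the small heat shock genes, the other alpha-crystallin genes, the chaperones and co-chaperones, and the regulators, where filled points have an adjusted p under 0.05. Hsp26 at 4.29 and Hsp23 at 3.23 are the highest small heat shock genes and l(2)efl at -1.08 is the lowest that passed, while Hsp83 and Hsf lie close to 0.

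Of 8 genes that encode regulators of heat shock or ecdysone-responsive promoters, 6 were higher and 1 lower, with a median log2 fold change of 0.69. Over all genes tested, 69.7% passed, 34.8% higher and 34.9% lower. Hsf, the heat shock factor, had 87.7, 84.4 and 83.7 CPM in CG1603PBac larvae, against 67.1, 85.1 and 72.3 CPM in wt larvae. The groups overlapped through wt replicate 2. Its log2 fold change was 0.19 ± 0.08 (SE, adjusted p = 0.0446, edgeR's quasi-likelihood test). The adjusted p of Hsf was 0.0598 in DESeq2. With 1 library left out, Hsf passed in edgeR's quasi-likelihood test only when that library was wt replicate 2. Heat shock factor is switched on by trimerization and phosphorylation of existing protein, which a transcript count does not measure. Trl, which encodes the GAGA factor that keeps heat shock promoters open, was lower at -0.62, although it was -0.22 and did not pass the test when scaled by library totals. E(bx), a subunit of the nucleosome remodeler NURF, was higher by 0.38.

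The list held 4 genes of ecdysone signaling, of which 3 were higher and 1 did not pass the test, beside 34.8% higher among all genes tested. The part of developmental stage in these changes was not tested. EcR, the ecdysone receptor, had 65.0, 72.6 and 62.3 CPM in CG1603PBac larvae, against 30.2, 29.1 and 27.4 CPM in wt larvae, a log2 fold change of 1.21 with no overlap. The early ecdysone response genes Eip74EF and br were higher by 2.57 and 1.80. The receptor's partner usp did not pass the test at -0.21, or 0.19 by library totals. The transcription factor foxo, which acts below insulin signaling and activates small heat shock genes, had 64.2 ± 1.47 CPM in CG1603PBac larvae and 32.2 ± 2.36 CPM in wt larvae (SD, n = 3 each), a log2 fold change of 0.99. Of the members that passed, 4 were higher and l(2)efl was lower, and the part of foxo in these changes was not tested.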

How the data were processed

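The deposited values were raw counts per gene, which the authors made from 100 bp paired-end reads of poly(A) libraries with STAR (dm6) and HTSeq after FastQC. The annotation version and strand setting are not given in the sources used here. The HTSeq categories that name no gene entered neither the library sizes nor the tests. In percent of all reads they were 31.4 unaligned, 6.81 aligned to several places, 3.83 without a feature, 1.80 of low quality and 1.38 ambiguous in CG1603PBac libraries, and 8.77, 5.16, 2.40, 2.31 and 1.88 in wt libraries. Every pair of replicates differed beyond sampling noise (chi-square per gene 7.46 to 17.0), so all 6 counted separately.

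Counts of all genes were tested with edgeR 4.0.16 in R 4.3.3 (TMM, filterByExpr with a minimum count of 10, robust quasi-likelihood F test, Benjamini-Hochberg over 11306 genes, threshold 0.05), without a replicate block. The procedure was checked on simulated counts in which few genes changed, evenly in both directions. That setting did not check scaling under changes as broad as those between these genotypes. Alternatives used DESeq2 1.42.0, limma-voom (limma 3.58.1), other scalings and filters, a replicate block and each library left out. Gene positions and overlaps came from the Ensembl annotation of dm6, which matched 12512 symbols directly and 3996 by an older name. No sequences were used here. The text names all members, the genes of the lists and, for each member above 5 CPM in a genotype, the gene with the nearest profile. The members and lists were chosen with earlier results of these data known.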

Additional observations from a re-analysis of the deposited data

Results flagged for a closer look

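Reads that were assigned to no gene stood at a higher level in CG1603PBac than in wt libraries in 3 categories that no comparison used. Unaligned reads were 31.4 ± 0.445% of all reads in CG1603PBac libraries and 8.77 ± 0.354% in wt libraries. Reads aligned to more than 1 place were 6.81 ± 0.0195% in CG1603PBac libraries and 5.16 ± 0.188% in wt libraries, and reads without a feature were 3.83 ± 0.195% in CG1603PBac libraries and 2.40 ± 0.190% in wt libraries (SD, n = 3 each). The ambiguous category, where reads shared by Hsp22 and Hsp67Bb would fall, was lower, at 1.38 ± 0.00533% in CG1603PBac libraries and 1.88 ± 0.0163% in wt libraries. The bearing of these shares on the small heat shock genes was not tested. Groups of 3 were too small for a search for outlying libraries.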

How the results depend on the processing

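Under every alternative, 5 small heat shock genes passed, 4 higher and 1 lower, also with each library left out (5 to 5). Called changes kept their direction: by library totals the log2 fold changes were 4.69 for Hsp26, 3.62 for Hsp23, 2.56 for Hsp27, 1.91 for Hsp67Bc and -0.69 for l(2)efl. With 1 library left out, Hsp26 ran from 4.23 to 4.38, Hsp23 from 3.18 to 3.25, Hsp27 from 2.06 to 2.24, Hsp67Bc from 1.27 to 1.85, l(2)efl from -1.17 to -0.9997, Hsp67Bb from 0.22 to 1.01 and Hsp67Ba from -0.999 to 0.0225 (without CG1603PBac replicate 1). Library totals turned the calls of Hsp83 (0.27) and Pdxk (0.19) to higher, made Droj2 (0.34) a higher call, and turned the sign of CG7409 (0.29), usp (0.19), CG34456 (0.30) and l(2)dtl (0.29), which passed under neither scaling. With them the neighbors split into 11 higher and 4 lower, against 8 and 5, and the regulators into 6 higher and 0 lower, against 6 and 1. Leaving out 1 library gave ranges of -0.21 to 0.0069 for CG7409, -0.30 to 0.061 for CG34456 and -0.21 to 0.017 for l(2)dtl. Of the fits of single list genes, 15 with 1 library left out and 2 under other alternatives kept their direction but no longer passed, and CG32040, CG32039 and CG30183 each newly passed under 2 alternatives. Genes called ran from 7328 to 7934 over all genes with 1 library left out, from 2 to 3 for the other alpha-crystallin genes, 12 to 13 for the chaperones, 6 to 7 for the regulators and 10 to 15 for the neighbors. The replicate numbers did not pair the samples (same-number correlations 0.01, -0.02 and -0.01). With the replicate block 5 small heat shock genes and 7741 genes in all passed, with log2 fold changes of 4.29 for Hsp26, 3.23 for Hsp23, 2.17 for Hsp27, 1.57 for Hsp67Bc and -1.07 for l(2)efl. Requiring 10 counts in every library dropped Hsp67Ba. Hsp67Ba and Hsp67Bb had at most 62 and 113 counts in a library, few countable exon bases and a wide spread between replicates. The lack of a call for these genes does not show that they were unchanged.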

Other observations

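For each of the 5 members above 5 CPM, the gene with the most similar profile over the 6 libraries was looked up by the root-mean-square difference of centered log2 CPM. The profile follows mainly the difference between genotypes, so this is a description over 6 libraries. Nearest to Hsp26 was Cyp9b2, a cytochrome P450 gene, with a difference of 0.134 and 4709 ± 36.6 CPM in CG1603PBac larvae against 251 ± 12.8 CPM in wt larvae (SD, n = 3 each). Nearest to Hsp23 was CG10918 (0.0713), with 91.8 ± 1.35 CPM in CG1603PBac larvae and 9.67 ± 1.22 CPM in wt larvae. CG7110 was nearest to Hsp27 (0.0401), the antisense gene CR44969 to Hsp67Bc (0.119) and Prosalpha4, a proteasome subunit gene, to l(2)efl (0.0292), with 50.0 ± 1.64 CPM in CG1603PBac larvae and 104 ± 10.1 CPM in wt larvae.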
